A study of Mus musculus with 18 samples.

Results

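The TRIM (tripartite motif) genes were described as a family across 9 populations of sorted mouse immune cells. Members were all genes whose symbol is Trim, a number and at most 1 lower-case letter, on probe sets that carry a single gene symbol. That gave 58 members of 19752 genes measured, each with 1 probe set. A further 6 probe sets name a Trim gene beside other symbols, among them those of Trim5, Trim17, Trim30b and Trim43, and were not used. Within the family, 7 members had low levels in NK cells and high levels in granulocytes, as interferon-stimulated genes did in these samples, and they were set against the other 51.

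TRIM proteins share a RING finger, B-box zinc fingers and a coiled coil, and most act as E3 ubiquitin ligases, enzymes that attach ubiquitin to chosen substrates. What follows the coiled coil differs between subfamilies: SPRY domains occur in many antiviral members, PHD fingers and bromodomains in chromatin regulators, and NHL repeats or COS boxes in others. Many SPRY members are induced by interferons, restrict retroviruses or tune the pathways downstream of RNA and DNA sensors, and a cluster around Trim5 has expanded in rodents.

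Transcript levels came from 18 Affymetrix Mouse Gene 1.0 ST arrays, 2 per population, of male C57BL/6 mice aged 6 weeks. All animals had received 10000 U of interferon gamma (IFNg) under the skin 2 h before, so that untreated cells were not analysed here and no value below is a response to IFNg. Spleen gave CD11c+ MHCII+ Flt3+ dendritic cells (DC), Ly6G+ granulocytes (GN), NK1.1+ TCRB- cells (NK), NK1.1+ TCRB+ cells (NKT), CD4+ TCRB+ (T4), CD8+ TCRB+ (T8), TCRgd+ TCRB- (Tgd) and CD4+ TCRB+ CD25+ cells (Treg). The peritoneal cavity gave F4/80+ ICAM2+ macrophages (MF), whose tissue and cell type cannot be told apart. Nothing in the labels ties the 2 arrays of a population to separate mice, so p-values cover only array-to-array spread, possibly technical. Levels are log2 intensity, given as mean ± SD over the 2 arrays or as both array values. Differences are log2 differences ± SE from limma. In a bulk sorted sample, fewer cells with a transcript and less of it per cell cannot be told apart.

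Arrays had median intensities of 139 to 151, and Pearson's r between the arrays of 1 population was 0.9901 to 0.996. Sort genes were highest where they should be, for example Ly6g in GN, Flt3 in DC and Foxp3 in Treg. DC stood apart in 1 respect: the median of 12 granulocyte markers was 9.21 on DC replicate 1 and 10.81 on DC replicate 2, against 12.93 and 13.12 in GN and 5.94 to 6.73 on the other 14 arrays. Monocyte markers (8.16 and 9.68) and red pulp macrophage markers (9.04 and 10.16) were also higher on DC replicate 2. Their part in the DC values was not tested, and results that turn on DC are also given without it.

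Promoters of the low-NK, high-GN members are shown first, since the transcription factors of interferon signalling bind short known motifs. The 7 were chosen for their levels in NK and GN, so that a shared course there is the choice itself. RefSeq promoters of assembly GRCm38.p6, from 250 bases before to 50 bases after the start, were matched by symbol for 46 of 58 members and for all 7 of these. Each was searched on both strands for GAAA, any 2 bases and GAAA again, the core of the interferon-stimulated response element (ISRE). The same was done for TTCNNNGAA, the core of the gamma-activated site (GAS), and for GGAA, any 2 bases and GAAA, a composite of ETS and IRF factors. Below, stretches of 30 bases are printed on the gene's strand with the match in capitals, and a match on the other strand reads as runs of T and C.
Trim30d, ISRE core: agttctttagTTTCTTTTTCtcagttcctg
Trim12c, ISRE core: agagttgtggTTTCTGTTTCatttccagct
Trim12a, ISRE core: agagttgtggTTTCTGTTTCatttccagag
Trim34a, ISRE core: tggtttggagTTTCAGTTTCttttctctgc
Trim21, ISRE core: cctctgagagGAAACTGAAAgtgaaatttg
Trim21, second ISRE core: agaggaaactGAAAGTGAAAtttggactgc
Trim25, ETS and IRF composite: tcctgttcagTTTCGATTCCttcctcgctg
These lie on chromosome 7 at chr7:104507871-104507900 (Trim30d, minus strand), chr7:104353359-104353388 (Trim12c, minus), chr7:104315466-104315495 (Trim12a, minus), chr7:104244457-104244486 (Trim34a, plus), and chr7:102565450-102565479 and chr7:102565444-102565473 (Trim21, minus). That of Trim25 lies on chromosome 11 at chr11:88999389-88999418, plus strand.

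The ISRE core was present in 6 of the 7 promoter sets, all but that of Trim25, against 2 of 39 other members with a promoter (Trim2 and Trim26), 0 of the 16 of these 39 that differed between populations, and 3.99% of 27025 genes. Of single promoters of this length, 3.44% of 32851 hold it. The match began 41 bases before the start in Trim30d and 29 bases before it in Trim12c. In Trim12a and Trim34a it began at base 11 of the transcript and in Trim21 at bases 14 and 20. Trim30a has 2 promoters in the table, and the stretch of one is letter for letter that of Trim30d, 36 bases before the start. These promoters are near copies, 90.8% identical to each other, and those of Trim12a and Trim12c are 72.6% identical, so that the matches are not 6 separate observations. GAS cores were found in 0 of 7, in 5 of 39 other members and in 9.55% of genes. The ETS and IRF composite was found in 3 of 7 (Trim12a, Trim12c and Trim25), in 3 of 39 other members and in 3.16% of genes, or 2.72% of single promoters. GAS cores were in 8.3% of single promoters. In Trim12a and Trim12c the composite overlaps the ISRE core. A match describes letters in this window, and none of it was measured as a binding site.

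Of these 7, the 2 with the widest gap between GN and NK have the 250 bases before their start printed whole, with these matches in capitals. In Trim12c the capitals span the ISRE core and the composite that overlaps it.
Trim30d, chr7:104507850-104508099, minus strand: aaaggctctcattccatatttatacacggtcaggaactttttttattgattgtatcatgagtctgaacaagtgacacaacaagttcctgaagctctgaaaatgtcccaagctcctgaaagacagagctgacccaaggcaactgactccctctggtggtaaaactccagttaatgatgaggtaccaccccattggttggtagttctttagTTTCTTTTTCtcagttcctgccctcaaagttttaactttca
Trim12c, chr7:104353350-104353599, minus strand: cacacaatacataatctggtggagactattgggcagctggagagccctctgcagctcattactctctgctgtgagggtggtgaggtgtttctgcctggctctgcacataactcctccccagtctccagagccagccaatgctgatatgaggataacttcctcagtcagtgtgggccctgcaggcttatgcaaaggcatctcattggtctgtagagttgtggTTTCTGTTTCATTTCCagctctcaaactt

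Over all 9 populations, 29 of 58 members differed between populations, against 39% of all genes. A gene passed here with a Benjamini-Hochberg adjusted p under 0.05 in limma's moderated F test, over all 19752 genes, and a range of 2-fold or more from its lowest to its highest population mean. The median range was 1.00 for the members and 0.71 for all genes. Trim13 had a range of 4.01, Trim59 of 2.69, Trim30d of 2.40 and Trim44 of 2.38, and the remaining 25 that passed ranged over 1.08 to 2.02. GN had the highest mean in 32 of 58 members (55.2%, against 38.4% of all genes) and the lowest in 14 (24.1%, against 20.8%). Among the 35 members above the median level of all genes in some population, GN was highest in 14 (40%). These 14 include the 7 low-NK, high-GN members, which were chosen in part for high GN. The 38.4% is not a like share for these 35, since all genes include dim ones. GN was highest in 7588 of all 19752 genes, and in 4389 of the 7532 (58.3%) at or below that median in all populations. The share among brighter genes is therefore below 38.4%. Both GN arrays lay above all other arrays for 19 members (background 20.2% of genes) and below all others for 12 (background 16.8%). The 19 also include the 7 chosen members.

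**Figure D1:**
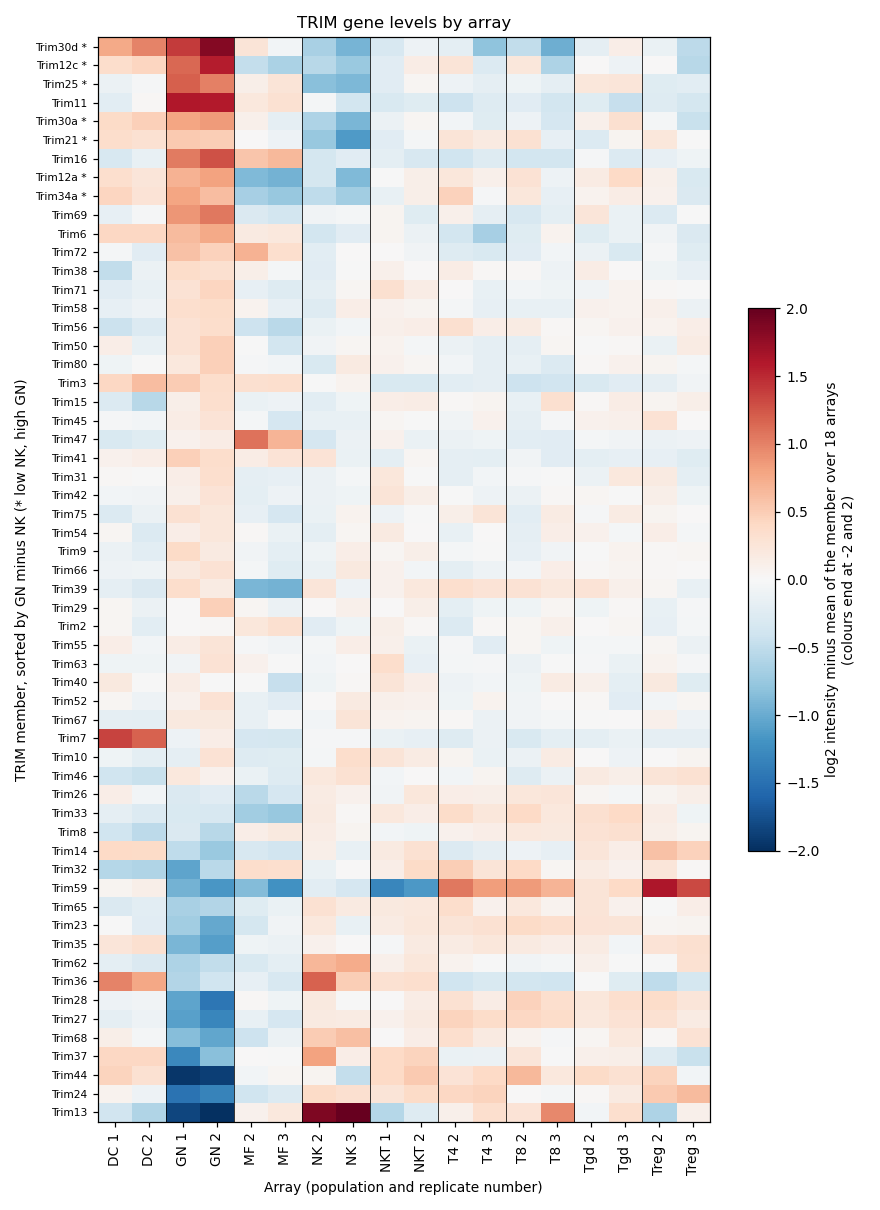
Level of the 58 TRIM members (rows, sorted by GN minus NK) on the 18 arrays (columns, named by population and replicate number), as log2 intensity minus the member's mean over all arrays, with the colour scale ending at -2 and 2. The 7 low-NK, high-GN members carry an asterisk and lie near the top, Trim13 is at the bottom with a GN-NK difference of -4.01, and the middle rows vary little.

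The low-NK, high-GN members were counted by limits of size and rank: GN at least 1 above NK, NK among the 2 lowest and GN among the 2 highest of the 9 population means. Trim30d, Trim12c, Trim25, Trim30a, Trim21, Trim12a and Trim34a met them, as did 505 of 19752 genes (2.56%). Since GN and NK chose these 7, their levels there are a description without a test. For each of the 7 both GN arrays lay above all 16 other arrays. Both NK arrays lay below all others for Trim21, Trim25 and Trim30a (background 1.66% of genes), while for Trim12a and Trim34a the lowest mean was that of MF.

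Trim30d, a rodent paralog of Trim30a, had the widest gap. Its arrays read 11.91 and 12.34 in GN, 11.27 and 11.50 in DC, 10.76 and 10.46 in MF, and 9.87 and 9.58 in NK, and the 10 T cell arrays ran from 9.53 to 10.64 with a median of 10.25. GN and DC were thus separated from each other and from all lymphoid arrays, whereas NK overlapped T8, whose arrays read 10.02 and 9.53. GN exceeded NK by 2.40 ± 0.21, or 5.28-fold. Over the 9 populations its level was 1.29 ± 0.11 higher in the 3 myeloid ones (GN, DC and MF) than in the 6 lymphoid ones. That contrast includes GN and NK, whose levels chose Trim30d. In DC and MF minus the 5 T cell populations the difference was 0.85 ± 0.13, under 2-fold.

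Trim30a, which is known to restrain Toll-like receptor signalling by removing Tab2 and Tab3, was lowest in NK at 11.39 and 11.09 and highest in GN at 12.79 and 12.86. DC read 12.39 and 12.48, Tgd 12.11 and 12.32, and MF 12.10 and 11.82. GN, DC and Tgd did not overlap with one another or with the rest, while the arrays of NKT, MF, T4, T8 and Treg overlapped along the order. GN exceeded NK by 1.59 ± 0.14.

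The mouse relatives of the retroviral restriction factor TRIM5, Trim12c and Trim12a, differed in how they placed MF. Trim12c read 10.04 and 10.46 in GN, 9.24 and 9.32 in DC, 8.41 and 8.25 in MF and 8.33 and 8.14 in NK, so that MF and NK overlapped. Trim12a read 11.34 and 11.44 in GN, 10.98 and 10.87 in DC, 10.29 and 9.76 in NK and 9.75 and 9.69 in MF. MF lay below all other arrays for Trim12a, and the 10 T cell arrays, at 10.33 to 11.03, overlapped DC. The GN-NK difference was 2.02 ± 0.24 for Trim12c and 1.36 ± 0.17 for Trim12a. For Trim12a, MF minus the mean of all other populations was -1.03 ± 0.12, and just under 2-fold without NK replicate 2. Probes of Trim12a and Trim12c, and of Trim30a and Trim30d, may pick up one another's transcripts, which makes the split between such paralogs uncertain.

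Trim34a, a further SPRY member of the same cluster, was lowest in MF at 8.54 and 8.44 and in NK at 8.68 and 8.50, which overlapped. GN read 9.98 and 9.81, DC 9.63 and 9.47, and the T cell arrays 8.90 to 9.65, which overlapped DC. GN exceeded NK by 1.31 ± 0.17.

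Trim21, a cytosolic Fc receptor that directs antibody-coated virus to the proteasome, varied mainly through NK. NK read 9.30 and 8.91, and the other 16 arrays lay between 9.78 and 10.57. GN, at 10.57 and 10.53, was 1.45 ± 0.16 above NK but little above DC, at 10.40 and 10.35. NKT stood 0.81 ± 0.16 above NK, and 1.00 above it without NK replicate 2.

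Trim25, the ligase that activates the RNA sensor RIG-I, read 11.51 and 11.33 in GN and 9.48 and 9.42 in NK, a gap of 1.97 ± 0.11. Between them the other populations were narrow, with Tgd at 10.55 and 10.57, MF at 10.43 and 10.57, DC at 10.20 and 10.30, and Treg at 10.07 and 10.11. It differed from the other 6 in placing DC in the middle of the order rather than next to GN. Under quantile normalization GN stood 0.98 above the other 8 populations, in place of 1.24.

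**Figure D2:**
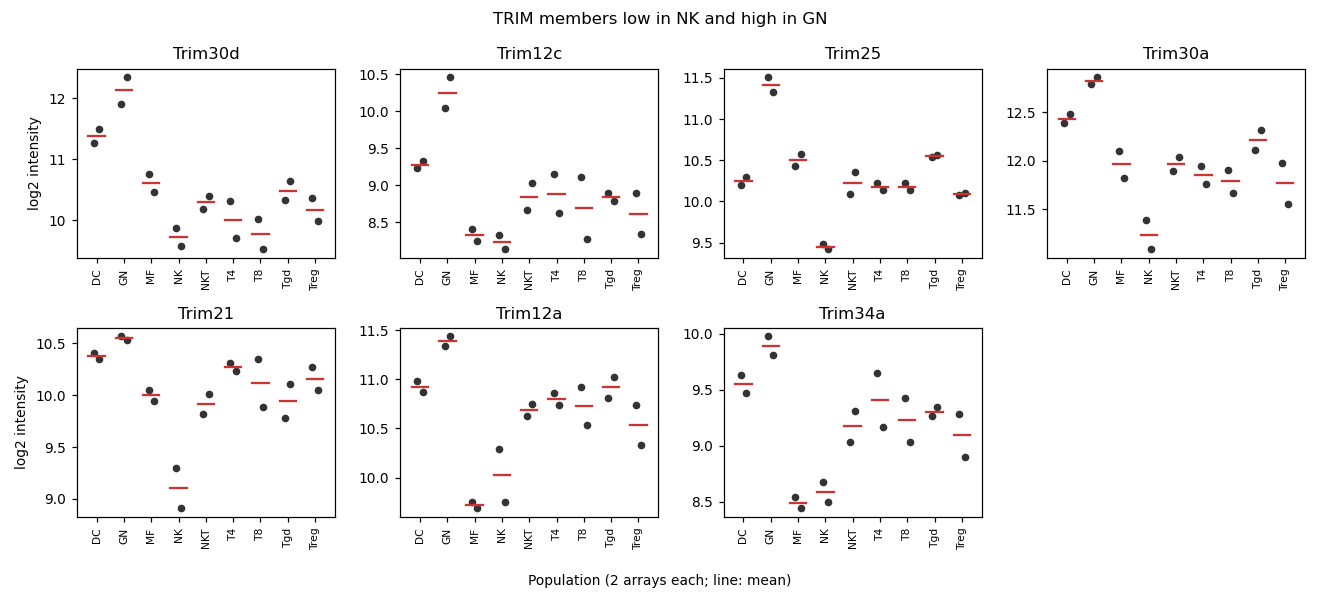
Log2 intensity of the 7 low-NK, high-GN members in each population, with 1 dot per array (2 per population) and a line at the mean, each panel on its own scale. GN is highest in every panel, NK lowest in 5, and MF lowest for Trim12a (9.72) and Trim34a (8.49).

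What these 7 share beyond GN and NK was read from the 7 other populations. Moderated F tests over those passed for Trim30d (range 1.60, adjusted p = 0.000127), Trim12a (1.21, adjusted p = 8.12e-05) and Trim34a (1.06, adjusted p = 0.00114), and not for Trim12c (0.95), Trim25 (0.47), Trim21 (0.46) and Trim30a, for which the range stayed below 1. Without DC, only Trim12a among the 7 still passed, and the ranges of Trim30d and Trim34a were 0.84 and 0.92. That of Trim34a was also 0.99 without DC replicate 1. Of the other 51 members 7 passed, giving 10 of 58 against 24.7% of all genes. These 7 were Trim13, Trim59, Trim7, Trim36, Trim39, Trim47 and Trim33. Without DC 6 members passed, and Trim7 and Trim36 were among those lost.

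Likeness to interferon genes was taken as Pearson's r with the mean z-scored profile of a list of type I interferon-stimulated genes, over those 7 populations. It has no p, and all points share the arrays. The list profile ran from 1.34 in GN, 0.88 in DC and 0.23 in Tgd to -0.34 in MF and -1.59 in NK. Of its 32 measured genes 31 differed over the 9 populations (background 39%) and 28 met the limits on GN and NK (background 2.56%). Oas2 was the widest, at 12.50 ± 0.03 in GN and 6.97 ± 0.24 in NK. Over the 7 populations r was 0.84 for Trim30a, 0.83 for Trim12c, 0.78 for Trim30d, 0.65 for Trim34a and Trim21, 0.54 for Trim12a and 0.04 for Trim25. The median was 0.65, against -0.16 for the other 51 members and 0.34 for all 505 genes within the limits. Without DC, over 6 populations, the median was 0.43, against 0.14 for the other members and -0.06 for those genes. Trim21 then stood at 0.01 and Trim25 at 0.40.

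**Figure D3:**
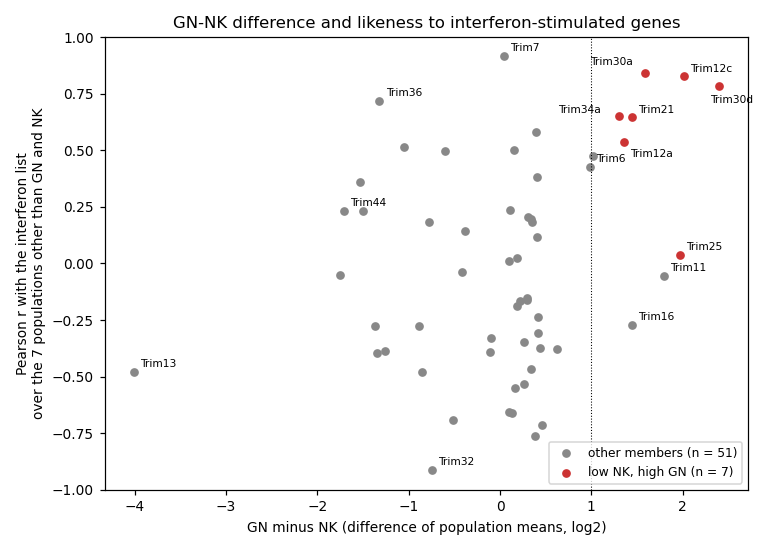
Difference of the GN and NK means (x axis, log2; the dotted line marks the limit of 1) against Pearson's r with the interferon list over the 7 populations other than GN and NK (y axis), 1 dot per member. Of the 7 red members 6 lie at r of 0.54 or more, Trim25 lies at 0.04, and Trim7 reaches 0.92 with a GN-NK difference of 0.04.

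Granulocyte markers were highest in GN, as the 7 members were, and next highest in DC, as all of the 7 but Trim25 were. They were not lowest in NK, with medians of 6.25 and 6.69 there and 5.99 and 5.94 in MF. On DC replicate 2 the 12 markers lay a median of 1.92 above DC replicate 1, and the 7 members a median of 0.09 above it, with single values from -0.15 to 0.23. All 58 members had a median of -0.03 between these arrays. What the markers contribute to these levels was not tested. On all 18 arrays the genes nearest to Trim30d were Oas1a (r = 0.96), an antiviral synthetase, Ccnyl1 (r = 0.96) and Ankfy1 (r = 0.95).

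Members at the edge of the limits show how they acted. Just inside lay Trim34a with a difference of 1.31. Just outside lay Trim6, whose product makes ubiquitin chains that activate the kinase encoded by Ikbke, with GN 0.99 above NK. Trim6 met the limits without GN replicate 1 (1.05) and without NK replicate 3 (1.05). Trim16, Trim11 and Trim69 passed in size, at 1.45, 1.80 and 1.02, but NK was not among the 2 lowest populations for any of them. Requiring NK to be the very lowest and GN the very highest left 5, without Trim12a and Trim34a.

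Trim11, Trim16 and Trim69 were high in GN but outside the limit on NK. Trim16 came nearest to it, with a mean of 6.67 in NK against 6.59 in T8, the lowest, and met it without NK replicate 3 or without T4 replicate 2. Trim11, a ligase for misfolded and signalling proteins, read 11.09 and 11.07 in GN, 9.70 and 9.80 in MF, 9.45 and 9.12 in NK, and 9.03 to 9.26 in the T cells. GN exceeded the mean of the other 8 by 1.80 ± 0.10 (adjusted p = 2.10e-11). Trim16, which binds galectins at damaged membranes, had both GN (7.99 and 8.23) and MF (7.51 and 7.60) above all others, which lay between 6.55 and 6.93. In GN it was 1.30 ± 0.09 higher than in the other 8 (adjusted p = 6.08e-10). Trim69 read 7.14 and 7.30 in GN and 5.88 to 6.48 elsewhere, a difference of 1.09 ± 0.11 (adjusted p = 7.94e-08). Its GN-NK difference of 1.02 was 0.94 without GN replicate 2 and 1.00 in a fit with a replicate block. Over the 7 populations without GN and NK, r with the interferon list was -0.06 for Trim11, -0.27 for Trim16 and 0.47 for Trim69. Without DC it was -0.42, -0.16 and 0.82.

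In GN minus NK, 10 members were higher (background 7.42% of genes) and 10 lower (background 12.5%), and 7 of the 10 higher are those that the limits chose. The 10 lower were Trim13, Trim24, Trim44, Trim37, Trim68, Trim27, Trim28, Trim36, Trim62 and Trim35. Against the mean of the other 8 populations, GN was higher in 6 members (background 7.03%) and lower in 9 (background 11.7%). Of these 6, Trim30d, Trim12c and Trim25 were chosen by the limits, in part for high GN.

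Among those lower in GN, Trim44, a member without a RING finger that carries a zinc finger of ubiquitin proteases, read 6.55 and 6.62 in GN. The other 16 arrays lay between 8.03 and 9.16, and the difference was -2.16 ± 0.14 (adjusted p = 2.01e-10). Trim24, Trim28, Trim33 and Trim66 carry PHD fingers and bromodomains and act on chromatin. Of these 4, Trim24, a co-regulator of retinoic acid receptors, read 7.01 and 7.14 in GN and 8.08 to 9.11 elsewhere, with Treg highest at 9.01 and 9.11 and MF next to GN at 8.08 and 8.21. Trim28 (KAP1), the corepressor of KRAB zinc finger proteins, read 8.44 and 8.05 in GN and 9.40 to 9.96 elsewhere. GN minus the other 8 was -1.58 ± 0.08 for Trim24 (adjusted p = 1.77e-11) and -1.41 ± 0.10 for Trim28 (adjusted p = 6.78e-10). Trim33, a regulator of TGF-beta signalling, had its lowest level in MF instead, at 9.22 and 9.16, with GN at 9.61 and 9.59 and the T cells at 9.83 to 10.31, so that the F test passed (range 1.08, adjusted p = 1.03e-06). Trim66 did not pass, with a range of 0.39.

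Trim27, a ligase that acts in endosomal trafficking, read 8.08 and 7.86 in GN and 8.83 to 9.62 elsewhere, a difference of -1.35 ± 0.08 (adjusted p = 1.62e-10). Trim37, which acts in peroxisome biogenesis, Trim35 and Trim68 were lower in GN, at -1.20, -1.13 and -1.07. Trim37 stood at -0.97 without GN replicate 1 and Trim68 at -0.98 without GN replicate 2. Under quantile normalization Trim35 stood at -0.80 and Trim68 at -0.94. In GN minus NK, Trim35 stood at -1.05 and at -0.96 without GN replicate 2. Trim23 and Trim32, at -0.97 and -0.90 in GN against the other 8, passed without GN replicate 1 (-1.14) and without GN replicate 2 (-1.16) in turn. Trim62 and Trim68 had both NK arrays above all others, as Trim13 had (background 3.65%). For Trim62 the means were 8.33 in NK and 7.07 in GN (GN-NK difference -1.26 ± 0.12, adjusted p = 4.86e-08).

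Trim13 had the widest range of the family and was highest in NK and lowest in GN, where the interferon list was lowest and highest. Over the 7 other populations its r with that list was -0.48, and without DC -0.01. Its product is a ligase anchored in the membrane of the endoplasmic reticulum. NK read 9.63 and 9.93 and GN 5.93 and 5.62. In between, T8 read 8.03 and 8.71, MF 7.85 and 7.98, DC 7.38 and 7.15, NKT 7.19 and 7.50, and Treg 7.15 and 7.86. NK and GN were each clear of every other array, and the rest overlapped. Against the other 8 populations, NK was higher by 2.28 ± 0.17 (adjusted p = 1.54e-08) and GN stood at -2.23 ± 0.17 (adjusted p = 3.84e-09). NKT, which share NK1.1 with NK, stood at -2.44 ± 0.23 against NK (adjusted p = 5.42e-07). Over the 7 populations without GN and NK the range was 1.11, and 0.76 without T8 replicate 3. Without T8 replicate 2, T8 exceeded the other 8 by 1.03, in place of 0.69. Kcnrg and Dleu2 overlap Trim13 in the genome, and both were dim, below the median of all genes (7.19) in every population. Kcnrg ranged over 0.68 and was highest in NK at 6.92, as Trim13 was, but with GN close to it at 6.86. Dleu2 was highest in GN at 4.04 and lowest in Treg at 2.60. The nearest genes on 18 arrays were 2810006K23Rik (r = 0.95), Phykpl (r = 0.94) and Trak1 (r = 0.92).

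Trim59, the other member anchored in a membrane, differed among T cell populations. Treg read 9.36 and 9.07, T4 8.81 and 8.58, T8 8.61 and 8.44, Tgd 8.01 and 8.14, DC 7.80 and 7.86, and NK 7.54 and 7.41. NKT (6.44 and 6.60), GN (6.80 and 6.59) and MF (6.89 and 6.54) were lowest and overlapped one another. T4 and T8 overlapped as well. Treg was higher than the other 8 by 1.65 ± 0.11 (adjusted p = 2.79e-09) and T4 by 1.06 ± 0.11 (adjusted p = 7.17e-07), which without T4 replicate 2 was 0.95. NKT stood at -1.38 ± 0.11 (adjusted p = 2.29e-08), GN at -1.18 ± 0.11 (adjusted p = 2.44e-08) and MF at -1.16 ± 0.11 (adjusted p = 5.20e-08). MF stood at -0.99 without MF replicate 3. Treg and T4 did not overlap, but their difference of 0.52 ± 0.14 did not pass (limma adjusted p = 0.0561). Between myeloid and lymphoid populations it differed by -1.002, which fell under 2-fold without any 1 of 9 arrays. The genes nearest to it on 18 arrays were Ccr7 (r = 0.89), the chemokine receptor for homing to lymph nodes, Tgif1 (r = 0.87) and Patj (r = 0.87).

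**Figure D4:**
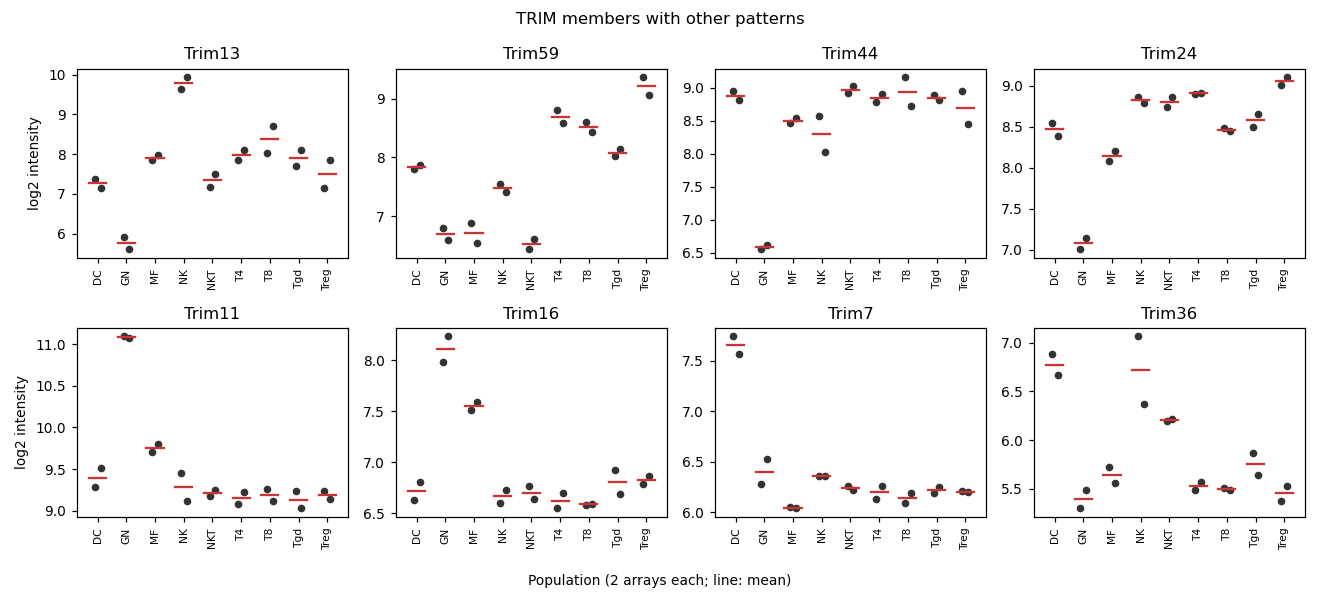
Log2 intensity of 8 members with other patterns in each population, with 1 dot per array (2 per population) and a line at the mean, each panel on its own scale. NK is highest for Trim13, Treg for Trim59 and Trim24, GN for Trim11 and Trim16, and DC for Trim7, while GN is lowest for Trim13, Trim44 and Trim24.

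DC differed in 1 member. Trim7, a ligase that binds glycogenin, read 7.74 and 7.57 in DC and 6.04 to 6.52 on all other arrays, a difference of 1.43 ± 0.08 (adjusted p = 6.45e-11, background 5.31% of genes higher). GN read 6.28 and 6.52. DC replicate 2, on which the granulocyte markers were higher, read 7.57, and the part of those markers in the Trim7 level was not tested. Without DC the range of Trim7 was 0.36 and did not pass. Trim36, which acts on microtubules and in sperm, came next in DC, at 1.00 above the other 8 and just under 2-fold. It read 6.88 and 6.66 in DC, 7.06 and 6.37 in NK and 6.20 and 6.22 in NKT, and 5.30 to 5.87 elsewhere. Trim36 passed in DC without any 1 of 7 arrays, with 1.10 without DC replicate 2, and Trim30d without any 1 of 5 arrays, with 1.09 without DC replicate 1. The GN-NK difference of Trim36 was -1.32 ± 0.16 (adjusted p = 2.16e-06), and -0.98 without NK replicate 2. No member was lower in DC (background 2.41%; 17 at unadjusted p under 0.05 by limma).

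MF had 3 members lower (background 4.19%) and 0 higher (background 7.56%; 11 at unadjusted p under 0.05 by limma). Besides Trim59 and Trim12a this was Trim39, a ligase linked to cell death and the cell cycle, at 7.60 and 7.57 in MF and 8.23 to 8.86 elsewhere (-1.05 ± 0.10, adjusted p = 5.93e-08). Trim47 was highest in MF, at 8.52 and 8.13 against 7.11 to 7.60 elsewhere, and at 0.99 was just short of 2-fold (1.19 without MF replicate 3). Its range over 9 populations was 1.16 (adjusted p = 7.30e-06) and 0.96 without MF replicate 2. In NK minus the other 8, 1 member was higher, Trim13 (background 2.45%), and 1 lower, Trim21 (background 2.62%), whose level in NK was part of the limits. Without NK replicate 2, Trim25, Trim30a and Trim30d passed as well, at -1.002, -1.01 and -1.03. Without NK replicate 3 Trim21 stood at -0.87 and no longer passed, and Trim36 passed at 1.28, in place of 0.93.

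Within the lymphoid populations the family varied about as much as all genes did. Over 6 of them 5 of 58 members passed the F test (background 9.95%): Trim59 with a range of 2.69, Trim13 with 2.44, Trim36 with 1.26, Trim21 with 1.17 and Trim25 with 1.10. The median range was 0.29, against 0.33 for all genes. For Trim21 and Trim25 the range comes from NK, which chose them. Trim36 fell to 0.92 without NK replicate 2 and Trim21 to 0.97 without NK replicate 3. T8 and Tgd each had 0 members higher or lower than the other 8, where backgrounds were 1.43% and 3% in T8 and 1.24% and 1.29% in Tgd. At unadjusted p under 0.05 limma gave 10 higher and 11 lower members in T8, and 14 and 5 in Tgd. Without T8 replicate 2, Trim30d stood at -1.07 in T8, in place of -0.83. NKT had 1 lower, Trim59 (background 2.28%), and 0 higher (1.64%; 10 at unadjusted p under 0.05 by limma). T4 and Treg each had 1 higher, again Trim59 (backgrounds 1.33% and 1.5%), and 0 lower (2.37% and 2.22%; 10 and 8 at unadjusted p under 0.05 by limma).

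Few TRIM genes passed between related lymphocytes, where few of all genes passed as well. Treg minus T4 gave 0 members (background 0.521% higher and 0.354% lower; 4 and 2 at unadjusted p under 0.05 by limma), and so did T8 minus T4 (0.425% and 0.537%; 1 and 1 at unadjusted p under 0.05 by limma). NKT minus NK gave 1 lower, Trim13 (background 2.16%), and 0 higher (1.51%; 12 at unadjusted p under 0.05 by limma). Trim59 was just short of it, at -0.95, and passed without NK replicate 3 (-1.02), without NKT replicate 2 (-1.04), and with a replicate block (-1.04). Nor did DC and MF together differ by 2-fold from the 5 T cell populations in any member (backgrounds 6.87% higher and 3.72% lower), though 11 members were higher and 23 lower at unadjusted p under 0.05 by limma. Trim30d was 0.85 ± 0.13 higher, Trim59 stood at -0.93 ± 0.08, and without MF replicate 2 Trim59 passed at -1.02. In myeloid minus lymphoid populations 1 member was higher, Trim30d (background 6.39%), and 2 lower, Trim13 (-1.16 ± 0.12, adjusted p = 1.03e-07) and Trim59 (background 4.41%). Trim30d was chosen for its levels in GN and NK, which are part of this contrast.

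**Figure D5:**
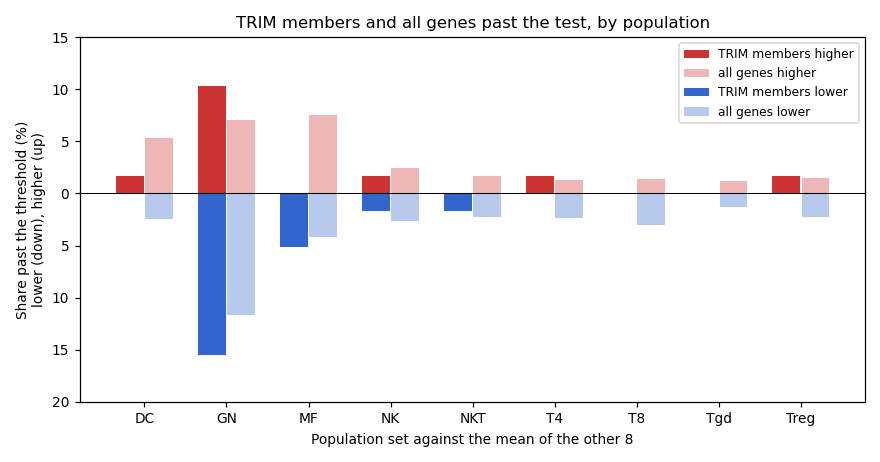
Share of the 58 TRIM members (solid bars) and of all 19752 genes (pale bars) that were higher (upward) or lower (downward) in a population than in the mean of the other 8, in percent. GN has 10.3% of members higher and 15.5% lower, MF has 5.17% lower, and T8 and Tgd have none.

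Subfamilies were taken from lists of known roles. Of 18 members listed for antiviral or sensing roles, 14 were measured. Of these, 10 differed over the 9 populations (background 39% of genes) and 7 met the limits (background 2.56%). The median GN-NK difference of the 14 was 1.15, against 0.20 for all 58 members and 0.13 for all genes. These 7 are by construction those described above. Of the others of the list, Trim6 had a like order, with GN and DC highest, and is described with its cluster. Trim14, an adaptor of the RNA sensing pathway, was highest in Treg (10.83 and 10.71) and DC (10.65 and 10.64) and lowest in GN (9.74 and 9.51). Trim23 was lowest in GN at 7.17 ± 0.24, against 8.39 ± 0.04 in T8, and Trim56, Trim26, Trim38 and Trim65 ranged over 0.65 to 0.85 and did not pass. In the cluster around Trim5 on chromosome 7, all 6 measured of 10 listed differed over the populations (background 39%). Of these 6, 5 met the limits (background 2.56%), with Trim6 as the exception. Trim6 read 6.66 and 6.78 in GN, 6.45 and 6.44 in DC, 5.67 and 5.80 in NK and 5.66 and 5.36 in T4. In all, 6 of the 7 low-NK, high-GN members and 6 of the other 51 lie on chromosome 7, and Trim25 lies on chromosome 11. Chromosome 7 holds 1730 of all 19752 genes, and 50 of the 505 genes within the limits.

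The 4 chromatin members had a median range of 1.37, with 3 passing, and the 2 anchored in membranes, Trim13 and Trim59, both passed. For these and the groups below, the background is 39% of all genes. Among 4 members with NHL repeats, Trim32, mutated in a muscular dystrophy, passed with a range of 1.18 (adjusted p = 1.25e-05), from 5.86 in GN to 7.04 in T4, but with 0.97 without GN replicate 1. Trim3, a partner of motor proteins, was just short with 0.92. Of 7 with COS boxes 1 passed, Trim36. The 4 muscle members (Trim54, Trim55, Trim63 and Trim72) and the 2 linked to red cells (Trim10 and Trim58) gave 0 calls each, with limma adjusted p under 0.05 for Trim72 and Trim58. Trim63, a ligase of muscle wasting, had the smallest range, 0.19. Of members whose mean lay above the median of all genes, Trim71, Trim41, Trim26, Trim8 and Trim56 had the smallest ranges, 0.57 to 0.79. The 5 probe sets of the highest mean intensity were those of Trim30a, Trim12a (10.64), Trim30d (10.51), Trim56 (10.36) and Trim25 (10.32), which does not rank transcripts, since probes differ in brightness.

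Dim members need care. In 23 of 58 no population mean exceeded 7.19, the median log2 intensity of all genes. Of these 23, 3 passed the test over 9 populations (Trim6, Trim32 and Trim36), and the median range of the 23 was 0.44. Of all genes, brighter ones included, 39% passed. GN had the highest mean in 18 of the 23 (78.3%), and in 58.3% of all genes as dim as these. The median of GN minus the other 8 populations was 0.26 for the 23 dim members and 0.20 for all genes as dim.

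Among TRIM proteins whose genes lack a Trim symbol, 5 of 7 differed over the populations (background 39% of genes). The limits on GN and NK were met by 0 (background 2.56%). Mefv, which encodes pyrin, was highest in GN at 9.87 ± 0.10 and lowest in Treg at 6.56 (range 3.31, adjusted p = 7.52e-14). Mid1 ranged over 2.06, with DC highest and GN lowest, and Mid2 over 1.72, with MF highest. Pml, the organizer of nuclear bodies and an interferon-stimulated gene, was highest in DC and MF (11.31 and 11.28) and lowest in NK (9.98 ± 0.11), with GN between at 10.72 ± 0.16.

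Of the 22 measured genes that TRIM proteins act with in sensing and ubiquitin transfer, 10 differed over the populations (background 39% of genes). The limits were met by 3 (background 2.56%). These were Ifih1 (11.52 in GN and 8.36 in NK), Zc3hav1 (11.68 and 10.48) and Ddx58 (12.06 and 10.94), the last encoding RIG-I, the substrate of Trim25. Mavs, the adaptor of both RNA sensors, went the other way, with 7.70 ± 0.38 in GN and 9.81 ± 0.13 in NK (GN-NK difference -2.11, adjusted p = 1.07e-09). The ubiquitin-conjugating enzymes Ube2d1, Ube2d2a, Ube2d3, Ube2l3, Ube2n and Ube2w ranged over 0.34 to 0.94 and did not pass, and Ube2v1 passed with 1.32. Traf6, Tbk1, Tab2 and Irf3 did not pass either. The widest ranges of the 22 were those of Irf5 (4.44), Ikbke (3.53) and Irf8 (3.45), which did not meet the limits. Their GN-NK differences were 2.01, -1.20 and -2.92. Interferon-gamma GTPase genes differed over the populations in 11 of 11 measured (background 39%), and 4 met the limits (background 2.56%). The GTPases Gbp2b, Gm4951 and Iigp1 were lowest in NK, as 5 of the 7 low-NK, high-GN members were, but highest in MF, at 11.48, 11.48 and 11.82. Gbp4, Gbp8 and Gbp11 were lowest in GN, with GN-NK differences of -1.55, -1.68 and -0.10. Against the other 8 populations, GN was higher in 4 of the 11 (background 7.03%) and lower in 5 (background 11.7%).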

How the data were processed

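The authors deposited 1 linear intensity for each probe set on each array. Affymetrix Power Tools and RMA made them, per the submitters' processing notes, with versions and joint normalization of the 18 arrays not given in the sources used here. RMA compresses differences of dim genes. Log2 was taken of the deposited intensity. Of 24922 probe sets, 21425 had 1 symbol, 1399 had several and 2098 are unnamed here, by GEO's platform annotation updated to RefSeq. The brightest probe set stood for a gene.

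All 18 arrays, 1 mean per population, were fitted with limma 3.58.1 in R 4.3.3 (trend, 9 residual and 7.69 prior degrees of freedom). Calls needed 2-fold and, after Benjamini-Hochberg adjustment over 19752 genes, p under 0.05. Counts at unadjusted p under 0.05 are given without the share of all genes, and do not set the members apart from other genes. The script was tested on simulated data. Members and lists were chosen with earlier results of these data known. Genes were named by rule: the low-NK, high-GN members, those at the edge, the 12 widest ranges, the 3 largest calls per contrast, the brightest and flattest 5, and list examples. Other members were chosen after their values were seen. Alternatives covered scaling, variance model, dim genes, probe sets, fold limit, each array and DC. Protein sequences were not used here. The number of arrays limits the precision.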

Additional observations from a re-analysis of the deposited data

How the results depend on the processing

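With 2 arrays per population, most changes concern the 2-fold limit. For 106 values, the range of each member over 9 populations and each difference that passed, 2886 comparisons with an alternative kept the side of the thresholds, 41 lost it, 16 gained it and none changed direction. Over all contrasts and members, fold limit kept, 63 calls were gained and 61 lost. Replicate numbers were shared between populations. Same-numbered arrays deviated together in some of them: r was 0.13 to 0.47 for all 6 pairs among NK, T4, T8 and Treg, but the median over 18 pairs was 0.09 (-0.16 to 0.47, 8 over 0.1), and 13 of 18 arrays correlated best with their own number. Since this did not hold for every pair, the numbers were not taken to pair the arrays. The count of 13 holds fewer than 18 separate matches, because the 2 arrays of a population deviate from their mean in mirror image. No share by chance was computed for it. A replicate block gave 0 again in Treg minus T4 and in T8 minus T4, left 29 members different over 9 populations and gave 2 for NKT minus NK (main 1), as did quantile normalization (2) and median centring (2). T4 minus the other 8 gave 0 under quantile normalization and 0 with log2(intensity + 32), in place of 1. That offset also gave 1 in myeloid minus lymphoid and 1 in MF, in place of 3 each. Without DC the test over 7 populations gave 6 in place of 10, and myeloid minus lymphoid 7 in place of 3, adding Trim11, Trim16, Trim24 and Trim44. Without a fold limit the counts were 14 over 6 lymphoid populations, 32 over 7 populations, 43 in GN minus NK, 31 in DC and MF minus T cells and 34 in myeloid minus lymphoid. Against the other 8 they were 25 in DC, 50 in GN, 27 in MF, 18 in NK, 10 in NKT, 18 in T4, 18 in T8, 8 in Tgd and 11 in Treg, and 1 in Treg minus T4, 1 in T8 minus T4 and 12 in NKT minus NK. These counts without a fold limit have no share of all genes beside them, so they do not set the members apart from other genes. Leaving out 1 array at a time gave 28 to 30 over 9 populations, 5 to 7 over the lymphoid ones, 9 to 12 over 7 populations and 18 to 22 in GN minus NK. It gave 0 to 1 in DC and MF minus T cells, 1 to 3 in DC, 15 to 15 in GN, 2 to 4 in MF, 2 to 5 in NK, 0 to 1 in T4, 0 to 2 in T8 (Trim13 and Trim30d), 1 to 2 in NKT minus NK, and 7 to 9 low-NK, high-GN members, with Trim6, Trim11 or Trim16 added. Quantile normalization moved the median of all genes by -0.08 in GN minus NK and in GN minus the other 8, and by less elsewhere. Low levels are the least certain: with the offset, Trim6, Trim32, Trim36 and Trim69 had ranges of 0.82 to 0.97 and no longer passed over 9 populations. The median r without DC (0.43 in place of 0.65) was chosen after seeing the data.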

Other observations

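The 2 arrays of a population differed together in the 7 low-NK, high-GN members. Differences here are the lower-numbered minus the higher-numbered array. Over all genes their median ran from -0.05 in NK to 0.02 in MF. The 7 are not separate observations, since they share arrays and probes of paralogs may pick up one another's transcripts. Replicate 2 was higher than replicate 3 for 7 of 7 in NK (median difference 0.29), T4 (0.19) and T8 (0.39). The same held for 6 of 7 in Treg (0.39) and MF (0.11). In NKT, with replicates 1 and 2, replicate 1 was lower for 7 of 7 (-0.21), so that replicate 2 was again the higher. In Tgd replicate 2 was lower than replicate 3 for 6 of 7 (-0.21). The median over the 32 type I interferon-stimulated genes had the same sign in those 7 populations, from 0.11 to 0.26 in NK, T4, T8, Treg and MF and -0.32 and -0.10 in NKT and Tgd. In DC and GN, with replicates 1 and 2, replicate 1 was higher for 3 of 7. Of the 32 interferon-stimulated genes, replicate 1 was higher for 5 in DC and for 18 in GN. The median of 15 immediate early genes ran the other way in NK (-0.46), T4 (-0.52), T8 (-0.51), Treg (-0.32) and MF (-0.22), and in NKT (0.13), but not in Tgd (-0.06). The largest single gap was that of Trim12c in T8, at 9.12 and 8.27. The cause was not tested.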
